A study of Mus musculus with 8 samples.

Results

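The array carried probes for 4610 transcripts that its annotation names only by a stretch of a chromosome, and 597 of them were expressed in these livers by the rule used here. Each such range has a chromosome, a start and an end on the mouse build mm9, and nearly all names end in F or R, which are taken here as the forward and reverse strand because the files do not spell the letters out. A probe counted as a member if the scanner software set it well above background on all 8 arrays and its processed signal was above the 75th percentile of the array on at least 4 of them. That rule chose 939 of 16194 range probes, and the probes of 1 range were averaged. The members were thus selected on their measured signal. A range that reached the level only in the group where it was high had to differ between groups, and such ranges are named as such where they occur.

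The livers, snap-frozen before RNA extraction, were those of 8 female mice of the hybrid laboratory strain B6C3F1, which were 5 to 6 weeks old when bought. The vehicle group, 4 mice, received corn oil by gavage. The furan group, also 4 mice, received furan in corn oil at 8 mg per kg body weight. Both groups were dosed for 21 days, were killed 4 h after the last dose and carried no transgene or other allele named in the labels. Each animal gave 1 array, so the number of arrays limits the precision. Each p-value sets the difference between groups against the spread within them, in which differences between animals and between arrays are mixed.

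Long noncoding RNAs are transcripts without a recognised protein. Some, such as Malat1, Neat1 and Tug1, are found in many tissues, stay largely in the nucleus and are studied for roles in nuclear bodies and gene control. Other intergenic transcripts are the primary transcripts of microRNAs, unannotated ends of neighbouring genes, or copies of gene families. Furan is turned into a reactive dialdehyde by cytochrome P450 enzymes in hepatocytes, and liver cells meet such electrophiles with glutathione and the glutathione S-transferases.

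Ranges at 2 loci rose most with furan, and 2 sets of reference sequences show what stands at them. The first is the mature microRNA miR-34a-5p, whose gene lies beside a strong rise on chromosome 4. Its seed, bases 2 to 8, is in capitals. No probe of a mature microRNA was used here.
mmu-miR-34a-5p: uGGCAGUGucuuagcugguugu
The second set is the 250 bases upstream of Gm3776 and Gm10639, neighbouring genes of the alpha class of glutathione S-transferases on chromosome 9, where the strongest rises lay. They are shown because they are near copies of each other: capitals mark the longest run the 2 have letter for letter, 162 bases. All 3 sequences are those of RefSeq on GRCm38.p6.
Gm3776: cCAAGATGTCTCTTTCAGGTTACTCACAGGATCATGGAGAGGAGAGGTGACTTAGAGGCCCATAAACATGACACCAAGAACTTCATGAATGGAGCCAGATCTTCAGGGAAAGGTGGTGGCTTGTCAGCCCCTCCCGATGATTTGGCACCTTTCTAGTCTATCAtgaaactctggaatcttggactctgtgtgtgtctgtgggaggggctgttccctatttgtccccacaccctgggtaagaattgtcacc
Gm10639: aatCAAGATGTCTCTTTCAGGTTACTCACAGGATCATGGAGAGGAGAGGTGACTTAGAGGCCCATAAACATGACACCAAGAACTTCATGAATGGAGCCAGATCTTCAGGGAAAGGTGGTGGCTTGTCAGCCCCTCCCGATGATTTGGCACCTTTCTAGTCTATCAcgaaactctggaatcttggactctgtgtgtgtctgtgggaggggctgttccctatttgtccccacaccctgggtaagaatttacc
The antioxidant response element is the motif through which electrophile-responsive genes are commonly controlled. Its core, TGACNNNGC on either strand, had 0 matches in the upstream bases of Gm3776 and 0 in those of Gm10639, against 10.2% of the 32851 promoters in the RefSeq table over the same 250 bases. That says only that these letters are not in these windows.

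Among the 597 members, 11 were higher with furan and 12 were lower at an adjusted p under 0.05, with limma's moderated test fitted to all 24919 features of the array and Benjamini-Hochberg adjustment over all of them. The shares called were 1.84% higher and 2.01% lower. Over all features, 2.79% passed as higher and 1.32% as lower, so the members' shares lie near that background. The median log2 fold change, furan minus vehicle, was -0.096 for the members and -0.097 for all features. The unadjusted p was under 0.05 for 109 of the 597 members and for 5930 of the 24919 features, so the share was lower among the members. Of the 23 called members, 6 changed by 2-fold or more, and 95.6% of all members lay within 1.5-fold.

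**Figure D1:**
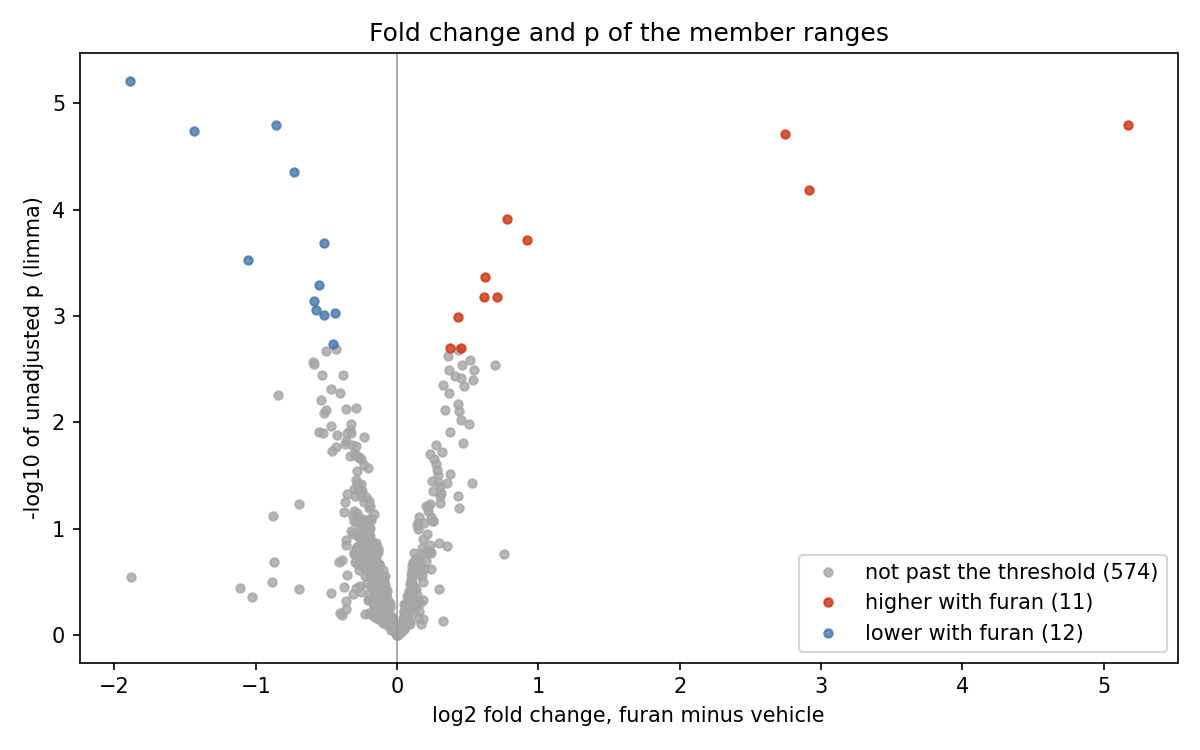
Each point is 1 of the 597 member ranges, with the log2 fold change (furan minus vehicle) on the horizontal axis and the -log10 of limma's unadjusted p on the vertical axis. The 11 ranges called higher are red, the 12 called lower are blue, and 3 rises stand at 2.74, 2.92 and 5.17, apart from the rest.

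How many members passed, and in which direction, moved with the scaling of the arrays. Quantile normalisation gave 8 higher and 18 lower, and normexp background correction with quantile normalisation gave 12 and 25. The authors' value table gave 16 and 22, no shift of the arrays 6 and 3, and a shift to the array median 3 and 0. The last setting placed the median of all features at 0.41 in place of -0.097, and the changes below are to be read relative to those medians. With the slide column as a block, limma called 0 members and 0 of all features. In that fit 88 members and 4655 of all features had an unadjusted p under 0.05. The adjusted p of the 23 ranges then lay between 0.097 and 0.19. Each column held 1 vehicle and 1 furan array, and in all 4 columns the furan array lay on the called side for 23 of 23 ranges. That had to be so, because the groups of these 23 ranges did not overlap, and it says nothing about the block.

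Vehicle replicate 2 stood apart from the other arrays. On it 86.2% of probe spots were well above background, against 55.1% to 69.4% on the other 7, and its median processed signal was 130 against 32.5 to 48.2. Without it 9 members were higher and 15 lower, and 20 of the 23 remained. Leaving out any 1 of the other 7 arrays left 7 to 10 members past the threshold, and 7 ranges passed in all 8 such fits. Marker genes of hepatocytes, Kupffer cells, lymphocytes, sinusoidal endothelium, stellate cells, bile duct, erythroid cells and exocrine pancreas had 0 called genes in every list with limma. Their counts at an unadjusted p under 0.05 were 0 of 11, 0 of 11, 1 of 9, 2 of 10, 4 of 10, 0 of 8, 0 of 7 and 3 of 6. Of the listed markers, 1 erythroid and 3 pancreas genes were well above background on no array. The hepatocyte markers' median log2 fold change was -0.058, and their summed log2 level was 13.0 to 13.4 in vehicle and 13.0 to 13.3 in furan livers. In bulk tissue, fewer cells of a type and less RNA per cell cannot be told apart.

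The strongest rises were 2 overlapping F ranges of chromosome 9, where the alpha glutathione S-transferase genes cluster. These enzymes join glutathione to electrophiles. For chr9:78107225-78118850, values are log2 signal relative to the 75th percentile of each array, as for every range below. They were -1.03, -0.52, 0.86 and 1.08 in vehicle replicates 2, 3, 4 and 6, and 5.42, 4.22, 5.80 and 5.62 in furan replicates 41 to 44. The lowest furan liver was far above the highest vehicle liver, and the vehicle livers themselves fell into a lower and a higher pair. The difference was 5.17 ± 0.55 (SE, n = 4 and 4), or 36.0-fold, with a limma adjusted p of 0.0062. Both of its member probes rose, by 5.04 and 5.30, and each passed in limma when every probe was fitted on its own. Another probe of the range, well above background on 7 arrays, differed by 0.11, and the other 2 were well above background on 2 arrays or fewer.

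The partly overlapping range chr9:78104935-78116974 is 12040 bases long, and Gm3776 spans 12038 bases in the RefSeq table. Its 1 probe read 2.40, 2.64, 3.38 and 3.51 in the vehicle livers and 6.07, 4.93, 6.35 and 6.26 in the furan livers. Furan replicate 42 was the lowest treated liver at both ranges, and vehicle replicates 4 and 6 were the higher controls at both. The difference was 2.92 ± 0.38 (SE), 7.55-fold, with a limma adjusted p of 0.012. The array's RefSeq-named probes at the same cluster gave log2 fold changes of 5.22 for Gm3776, 4.08 for Gm10639 and 1.92 for Gsta2, with limma adjusted p of 0.0082, 0.0066 and 0.024. The upstream bases shown are near copies for Gm3776 and Gm10639 only, and no probe or transcript sequences were compared. Which of these genes a range probe read therefore cannot be told apart here.

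The next rise was chr4:149445201-149445902, an F range of 702 bases beside Mir34a. The microRNA miR-34a is a known transcriptional target of p53 and slows the cell cycle. Its values were -1.48, -2.36, -1.81 and -2.98 in the vehicle livers and 0.70, 0.40, 0.53 and 0.71 in the furan livers. The furan livers lay close together, while the vehicle livers were spread, lowest in replicate 6. The range rose by 2.74 ± 0.30 (SE), 6.70-fold, with a limma adjusted p of 0.0066, and its 3 probes rose by 2.13, 2.76 and 3.34. It had met the level threshold on the 4 furan arrays only, so its entry among the members rested on the treated group.

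The other 8 rises were smaller, between 1.30- and 1.89-fold. The R range chr4:116791819-116798263 had values of -0.61, -0.22, -0.25 and -0.02 in vehicle and 0.84, 0.57, 0.65 and 0.53 in furan livers. It too met the threshold on the furan arrays only. It rose by 0.92 ± 0.14 (SE) with a limma adjusted p of 0.019, and passed in the 3 fits without vehicle replicate 2, 3 or 6 of the 8 that left out 1 array. A second probe of the range, below the level threshold, differed by 0.80.

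The F range chr14:44284425-44300475, with 1 probe, read 1.67 ± 0.13 in vehicle and 2.45 ± 0.15 in furan livers (SD, n = 4 each), with furan values of 2.27, 2.58, 2.57 and 2.37. It rose by 0.78 ± 0.11 (SE), with a limma adjusted p of 0.016. The F range chr14:44292637-44293014, a member that lies inside it, differed by only 0.29 (limma adjusted p = 0.16), its 2 member probes by 0.24 and 0.33. For chr8:119732348-119749198 (F), 1 of 10 probes was a member, and the range rose by 0.71 ± 0.13 (SE), from 0.21 ± 0.16 to 0.92 ± 0.20 (SD, n = 4 each). Of its 9 other probes, 7 had differences between 0.74 and 1.03, while the remaining 2 stood at -0.41 and -0.95. The probes of this range thus did not all point one way. In those 2, vehicle replicate 2 was the highest array, at -1.01 and -2.04.

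On chromosome 17, the short F range chr17:85422370-85423168 lies inside the longer F range chr17:85418489-85427364, and the 2 gave nearly the same difference. The short one read 2.84, 2.66, 2.96 and 2.74 in vehicle and 3.52, 3.57, 3.31 and 3.24 in furan livers, a rise of 0.61 ± 0.11 (SE). The long one, from 3 other member probes, rose by 0.62 ± 0.11 (SE). Furan replicates 41 and 42 were the higher of the treated livers in both. Their limma adjusted p-values were 0.030 and 0.025.

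The F range chr16:43623175-43624069 rose by 0.43 ± 0.09 (SE, limma adjusted p = 0.036), and its 3 probes by 0.40, 0.41 and 0.48. A second F range of that chromosome, chr16:43635730-43639104, had a difference of 0.43 with an adjusted p of 0.0505, just short of passing. It was picked out after its value was seen. At chr9:14460976-14488051 (F), 4 member probes gave a rise of 0.45 ± 0.10 (SE, limma adjusted p = 0.0495), with vehicle values from 0.73 to 1.09 and furan values from 1.31 to 1.44. The F range chr9:14480441-14483362, a member that lies inside it, had a difference of the other sign, -0.20 (limma adjusted p = 0.63). In the 8 fits with 1 array left out, chr16:43623175-43624069 passed in 0. The chr9:14460976-14488051, chr8:119732348-119749198 and chr17:85422370-85423168 ranges passed in 1, the fit without vehicle replicate 2.

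**Figure D2:**
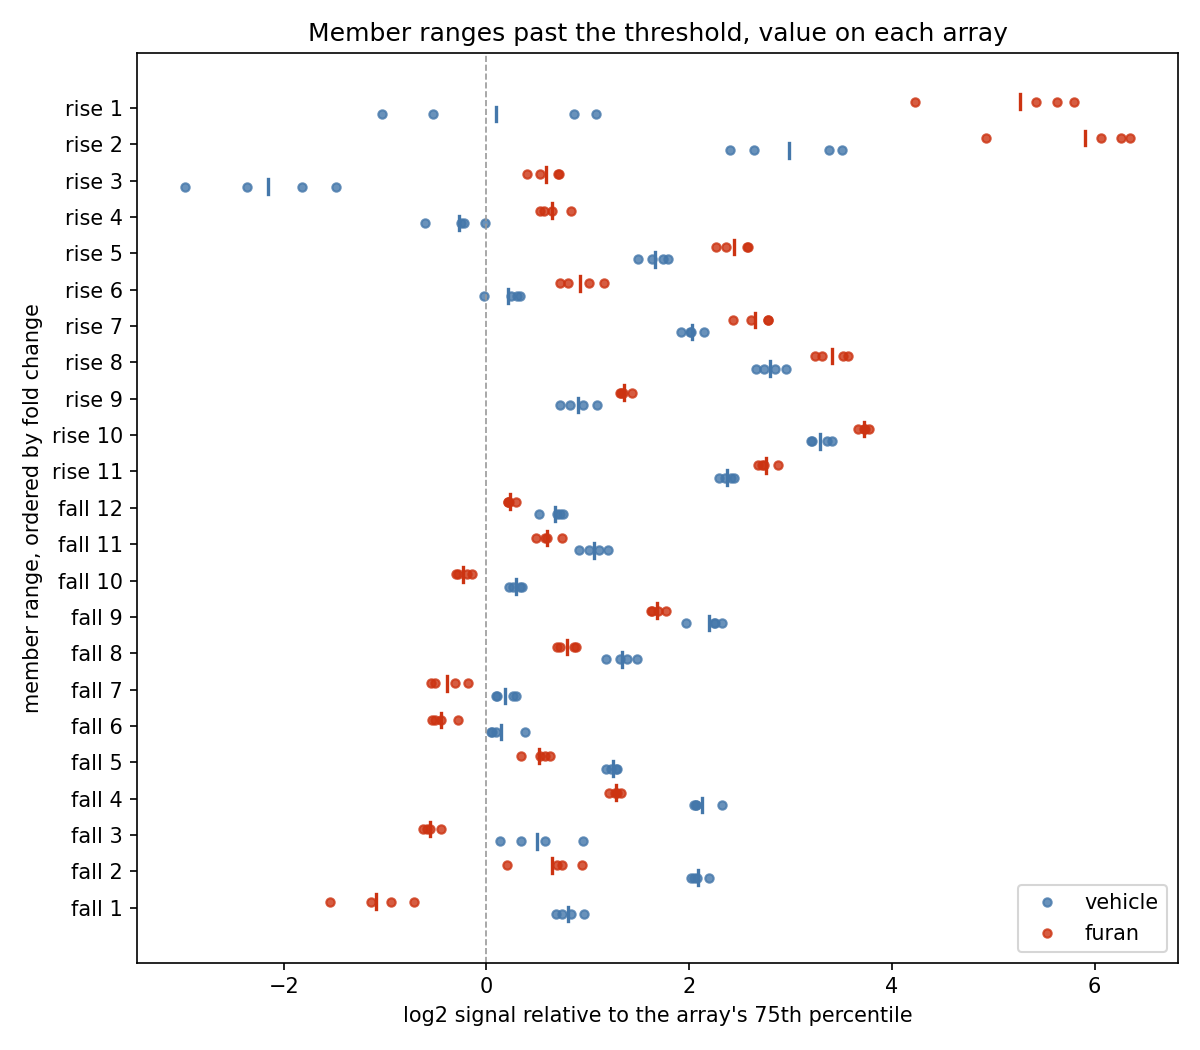
Each row is 1 of the 23 member ranges past the threshold, ordered by fold change from fall 1 at the bottom to rise 1 at the top, and each point is 1 array (blue vehicle, red furan, 4 each, with the mean as a bar). The horizontal axis is the log2 signal relative to the array's 75th percentile, the dashed line at 0, and in no row do the 2 groups overlap.

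The strongest fall came from 1 locus on chromosome 8 that the array reads on both strands. By general knowledge it lies in the neighbourhood of Irs2, which encodes an adaptor of the insulin receptor. The range has 19726 bases and Irs2 24249 in the RefSeq table, so the range cannot hold the whole gene. Whether it holds any part of Irs2 was not checked, because gene positions on mm9 were not used. The F transcript of chr8:10886200-10905925 read 0.97, 0.69, 0.83 and 0.75 in vehicle livers and -0.71, -1.55, -0.94 and -1.14 in furan livers. All 4 furan livers were well below the controls, with replicate 42 lowest. It fell by 1.89 on the log2 scale (SE 0.18), 3.71-fold, with a limma adjusted p of 0.0050, and its 3 probes had differences of -2.30, -2.21 and -1.16.

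The R transcript of the same range read 1.23, 1.18, 1.29 and 1.28 in vehicle and 0.62, 0.58, 0.34 and 0.53 in furan livers. It fell by 0.73 (SE 0.09, limma adjusted p = 0.010), but its 2 member probes disagreed: 1 had a difference of -1.28 (adjusted p = 0.0095) and the other -0.17 (adjusted p = 0.40). The 2 probes of the R transcript below the level threshold stood at -1.33 and -0.74. Irs2's own probe had a difference of -0.30 with a limma adjusted p of 0.30, so it did not pass.

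The R range chr19:36699712-36763966 was the next to fall. Its values were 2.02, 2.19, 2.05 and 2.07 in vehicle livers and 0.74, 0.69, 0.20 and 0.94 in furan livers. The controls lay close together, and furan replicate 43 was lowest. The fall was 1.44 (SE 0.16), 2.71-fold, with a limma adjusted p of 0.0065. It rests on 1 of 3 probes. A second probe, dimmer than the level threshold, differed by -0.38. It read -1.51 in vehicle replicate 2 and -2.91, -2.46 and -2.38 in the other controls, and its groups overlapped. The other probe was well above background on 0 arrays.

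The R range chr12:110738120-110769295 lies in the imprinted interval between Dlk1 and Meg3, where genes are expressed from one parental copy and Meg3 is a maternally expressed noncoding RNA. It read 0.58, 0.95, 0.13 and 0.34 in vehicle and -0.59, -0.45, -0.62 and -0.56 in furan livers. The furan livers were almost equal and the vehicle livers spread, with replicate 3 highest. The range had met the level threshold on the 4 vehicle arrays only. It fell by 1.05 (SE 0.17), 2.08-fold, with a limma adjusted p of 0.022, and passed in 3 of the 8 fits with 1 array left out, those without vehicle replicate 2, 3 or 4. Of its 4 other probes, 2 were well above background on at least 4 arrays and stood at -0.43 and 0.19. Meg3's own probe differed by -0.40 with a limma adjusted p of 0.36.

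Of the falls, chr6:129151512-129208737 (R) rested on most probes, 7 of 10. This range lies in the natural killer gene complex, a stretch of lectin-like receptor genes of immune cells. Its values were 2.07, 2.07, 2.32 and 2.05 in vehicle and 1.21, 1.33, 1.29 and 1.27 in furan livers. Every furan liver was below every control, and both groups were tight apart from vehicle replicate 4. It fell by 0.85 (SE 0.09), 1.81-fold, with a limma adjusted p of 0.0062, and its member probes stood between -0.56 and -1.04. The F transcript of the same range had a difference of -0.14 with an adjusted p of 0.71. Beside it, the median log2 fold change of the lymphocyte markers was -0.28, 0 of 9 were called by limma, and they had a summed log2 level of 4.55 to 4.69 in vehicle and 4.34 to 4.79 in furan livers. Kupffer cell markers, 11 tested, had a median of -0.12, and a summed level of 7.18 to 8.47 in vehicle and 7.39 to 7.75 in furan livers. Their part in the result was not tested.

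The R range chr11:3539787-3548811 is 9025 bases long, close to the 9030 bases of Tug1 in the RefSeq table, and by chromosome and strand it is taken as the Tug1 locus. Tug1 is a conserved nuclear noncoding RNA. The range read 0.22, 0.33, 0.35 and 0.26 in vehicle and -0.30, -0.15, -0.28 and -0.19 in furan livers, 2 tight groups on either side of the level threshold, which it met on the vehicle arrays only. It fell by 0.52 (SE 0.08), 1.43-fold, with a limma adjusted p of 0.019. Its 2 other probes, below the threshold, had differences of -0.49 and -0.59. The array's RefSeq-named Tug1 probe differed by -0.23 with a limma adjusted p of 0.25, so that probe did not pass.

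Smaller falls, 4 in number, complete the 10 largest. The R range chr6:108162092-108162886 fell by 0.59, from 0.14 ± 0.16 to -0.44 ± 0.12 (SD, n = 4 each, limma adjusted p = 0.031). The R range chr9:20784567-20799942 fell by 0.57, from 0.19 ± 0.10 to -0.39 ± 0.17 (adjusted p = 0.034). Both ranges met the level threshold on the vehicle arrays only. The chr9:20784567-20799942 fall rests on 1 of 5 probes. Of its dimmer probes well above background on all 8 arrays, those at -0.08 and -0.41 had overlapping groups and that at -0.68 did not. The R range chr2:174945941-174946507 fell by 0.55, from 1.34 ± 0.13 to 0.79 ± 0.09 (adjusted p = 0.027). For chr5:149751979-149808240 (R) the fall was 0.52, from 2.20 ± 0.16 to 1.68 ± 0.07 (adjusted p = 0.036). Its 7 probes well above background on at least 4 arrays stood between -0.40 and -1.05. The probe at -1.05 read -1.89 in vehicle replicate 2 and -4.73, -3.99 and -3.18 in the other controls. A dim probe at -0.78 read -1.85 in that replicate and -4.89, -4.21 and -3.72 in the others. In both probes the groups overlapped. These 4 ranges and that of Tug1 passed in 1 of the 8 fits with 1 array left out, the fit without vehicle replicate 2.

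How the members met the level threshold bears on these counts. The threshold was met on all 8 arrays by 482 members, with 7 called higher and 7 lower. It was met on 4 to 7 arrays by 115, with 4 higher and 5 lower. In 10 members only the arrays of 1 group met it, 2 through furan and 8 through vehicle, and 6 of those 10 were called. The members nearest the threshold were chr15:59059450-59070576 (R), chr1:193815525-193825775 (F) and chr3:87764926-87769766 (R), whose fourth-highest array stood at 1.005, 1.009 and 1.010 times the percentile. Just outside were chr5:149751979-149808240 (F), chr13:74568375-74601000 (R) and chr4:82156098-82196298 (R), at 0.997, 0.996 and 0.994 times.

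The members lie on 20 chromosomes, from 13 on the X chromosome to 53 on chromosome 6, with 299 F and 298 R transcripts. They span 125 to 508115 bases, with a median of 14576. Many share a place: merging members that overlap or lie under 10000 bases apart gave 459 loci, of which 110 hold several members, and the 23 called ranges come from 20 loci. The 597 ranges have 2606 probes on the array, and 409 ranges rest on 1 member probe. In 301 ranges at least 1 probe was not well above background on 4 arrays, so bright and dim probes often share a range. Why they differ was not tested.

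**Figure D3:**
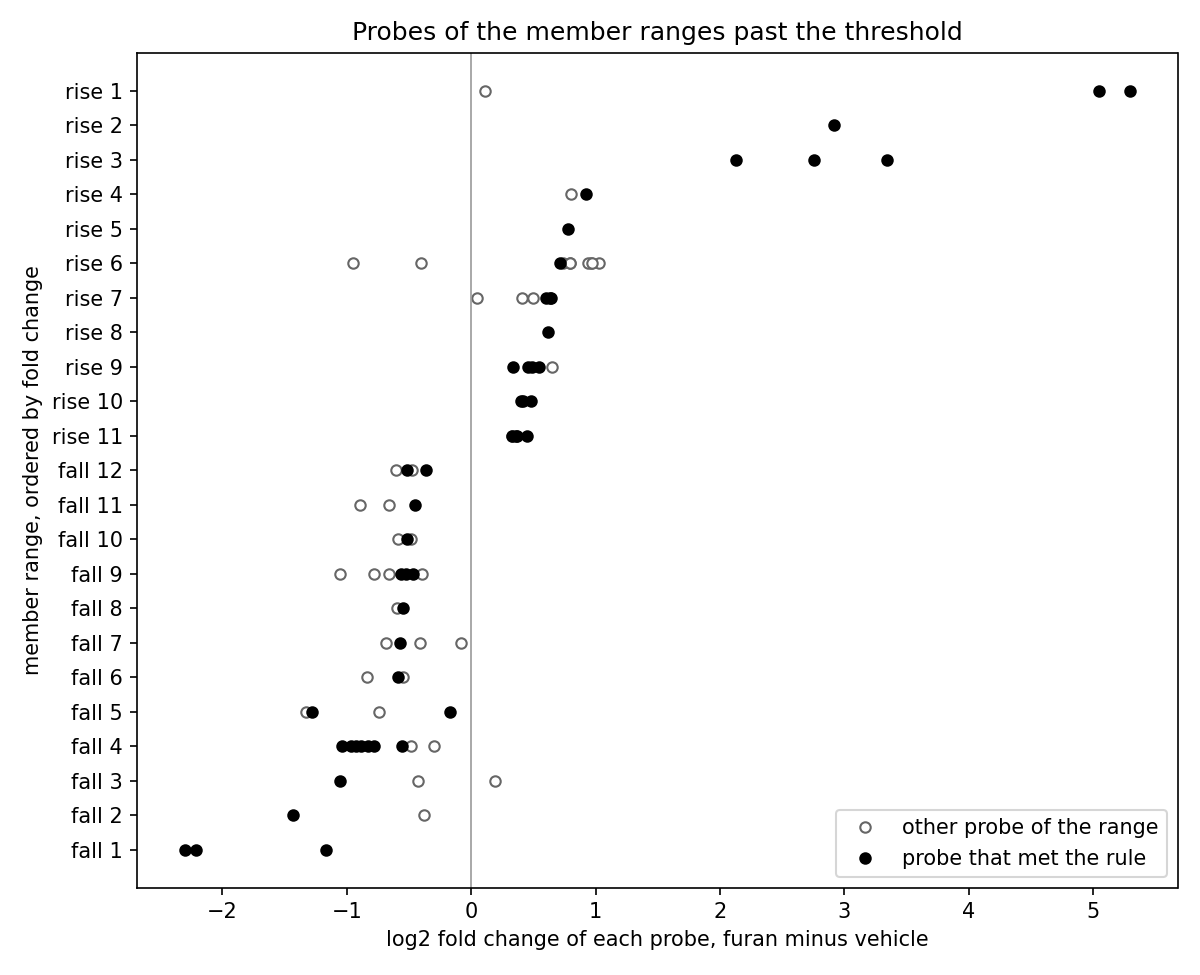
Each row is 1 of the 23 called ranges in the same order as the plot of values by array, and each point is 1 probe that was well above background on at least 4 arrays, with its log2 fold change (furan minus vehicle) on the horizontal axis. Filled points met the member rule and open points did not. Rise 6 and fall 3 have open points on the other side of 0, and the 2 member probes of fall 5 stand at -1.28 and -0.17.

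Where a range had several member probes, they mostly moved alike. In the 188 such ranges the median spread between the highest and lowest probe was 0.12 log2 units, and in 43 of them probes had opposite signs. The widest spread was in chr5:34696192-34722842 (F), whose 2 probes stood at -1.24 and 0.31. In chr16:8738782-8830148 (R) they stood at -1.76 and -0.36, and in chr6:116092274-116144199 (F) the 3 probes ran from -1.54 to -0.22. None of these 3 was called, with limma adjusted p of 0.55, 0.49 and 0.39. All 3 also varied widely within the groups.

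For 57 ranges both the F and the R transcript were members. Their log2 fold changes had the same sign in 37. Across the 57 the Pearson correlation was 0.28, and it was 0.078 over 56 without chr8:10886200-10905925, the 1 range called on both strands. Strands of 1 range share animals and arrays and are not independent, so this is a description. The median distance between the strands' log2 fold changes was 0.18. The widest gap was at the same chromosome 8 locus, where F stood 1.17 below R.

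**Figure D4:**
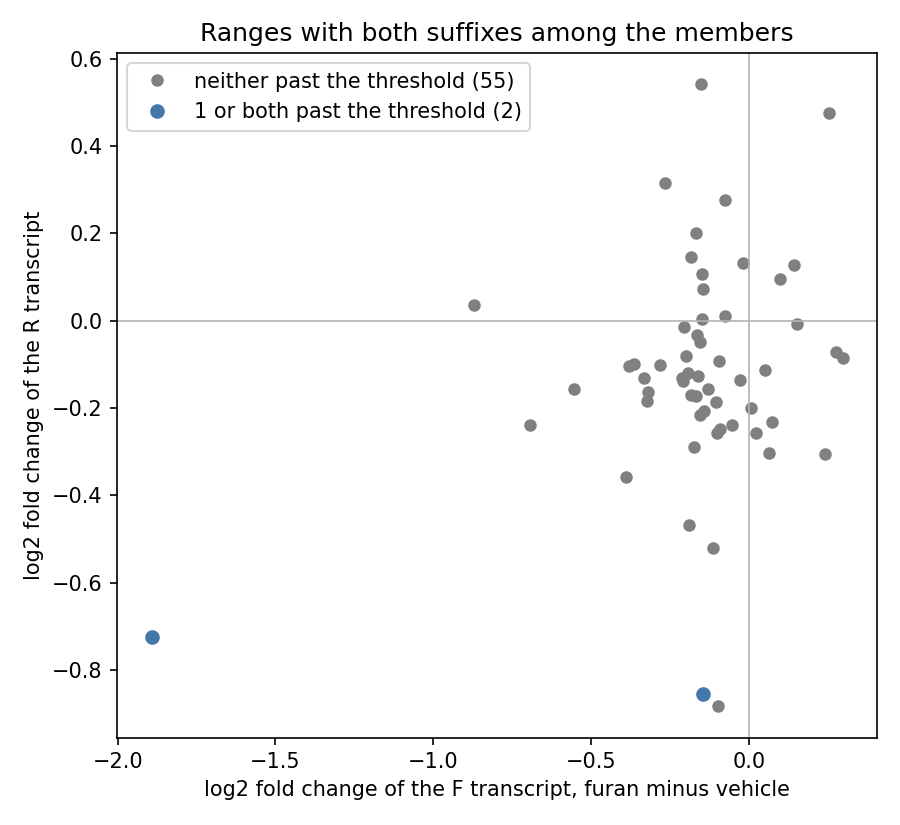
Each point is 1 of the 57 ranges with both transcripts among the members, with the log2 fold change (furan minus vehicle) of the F transcript on the horizontal and of the R transcript on the vertical axis. The blue point at the lower left, at -1.89 and -0.73, was called on both strands, and the blue point at -0.14 and -0.85 on R only.

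Several well-known nuclear RNAs lie inside member ranges and did not pass. Malat1, an abundant RNA of nuclear speckles, is read by chr19:5801802-5802597 (R). It had values of 5.98, 6.58, 6.71 and 6.81 in vehicle and 6.91, 6.94, 6.14 and 6.83 in furan livers, which overlap, and a difference of 0.18 ± 0.24 (SE, limma adjusted p = 0.63). The R range chr19:5798135-5800557 differed by 0.13 and the F range chr19:5795690-5797464 by 0.07. The F range chr19:5771425-5848475, which contains these, differed by 0.24 with an adjusted p of 0.36. The array's RefSeq-named Malat1 probe differed by 0.67 with a limma adjusted p of 0.073. That probe was far dimmer than chr19:5801802-5802597, with means of -1.39 in vehicle and -0.72 in furan livers. Neat1, the RNA on which paraspeckles form, lies in the same stretch. The R range chr19:5834117-5835940, placed there, differed by 0.53 ± 0.21 (SE, limma adjusted p = 0.18), whereas the RefSeq-named Neat1 probe differed by -0.53 with an adjusted p of 0.090. The 2 differences have opposite signs, neither passed, and the difference between them was not tested.

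On chromosome 17, 6 member ranges lie between 39960567 and 39992817, a stretch of build mm9 that holds a copy of the 45S ribosomal RNA precursor. The F range chr17:39983902-39985688 read 6.79, 6.79, 6.63 and 6.58 in vehicle and 6.91, 6.96, 7.26 and 6.95 in furan livers. The groups did not overlap, which was so for 43 members on the higher side and 52 on the lower, and for 10.8% and 7.53% of all features, yet the limma adjusted p was 0.13 for a difference of 0.32. The F range chr17:39982023-39983277 inside the same stretch differed by -0.03 (adjusted p = 0.90), and the enclosing chr17:39960567-39992817 by 0.26 on F and 0.48 on R (adjusted p = 0.20 and 0.068). The R range chr17:39979941-39981793 differed by 0.43 (adjusted p = 0.081). Nearest to passing was the R range chr17:39980973-39981876, with a difference of 0.46 (adjusted p = 0.058). None of the 6 was called.

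Of the other close neighbours, chr17:17481706-17482457 (R) lies inside chr17:17462450-17488725 (F), and they differed by 0.11 and -0.07 (adjusted p = 0.44 and 0.56). Inside chr6:116092274-116144199 (F), which stood at -0.87, the short F range chr6:116123643-116124550 stood at 0.26 (adjusted p = 0.39 and 0.14). A list of 48 named noncoding RNAs was measured by RefSeq-named probes. Of these, 27 were tested, 0 were called by limma, 8 had an unadjusted p under 0.05, and the median log2 fold change was -0.11. The smallest adjusted p-values belonged to H19 (0.82, adjusted p = 0.069), Malat1, Neat1, Snhg6 (-0.29, adjusted p = 0.12), Mir17hg (0.40, adjusted p = 0.13) and Snhg5 (-0.57, adjusted p = 0.17).

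The 5 members with the highest signals did not pass either. The F range chr14:78924115-78938125 read 9.63, 10.18, 8.94 and 10.47 in vehicle and 8.89, 9.42, 9.73 and 9.94 in furan livers, and differed by -0.31 (SE 0.36). The R range chr12:73838608-73862621 read 8.00, 8.98, 7.86 and 9.64 against 7.71, 7.90, 8.16 and 9.28, with a difference of -0.36 (SE 0.48). In both, vehicle replicates 3 and 6 and furan replicate 44 were the high animals, and the groups overlapped. The chr14:78924115-78938125 level rests on 1 of 7 probes, and 5 of the 7 were not well above background on 4 arrays. That of chr12:73838608-73862621 (R) rests on 1 of 5 probes, with 1 such dim probe. The R ranges chr17:17481706-17482457 and chr11:22681800-22707775 were steady, with differences of 0.11 and -0.08. The R range chr1:193875525-193978800 read 7.80, 8.10, 7.82 and 7.86 in vehicle and 8.29, 8.29, 8.66 and 8.40 in furan livers. It had no overlap, but its difference of 0.52 ± 0.12 (SE) had a limma adjusted p of 0.056.

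Some members differed more between animals than between groups. The median SD within groups was 0.18 log2 units over all members, and the 20 members with the widest spread, chosen after their values were seen, had 0.61 or more. They lie on 11 chromosomes. In 11 of these 20 vehicle replicate 6 was the highest array, compared with 23.8% of all members and 8.79% of all features. For chr4:88542373-88589148 (F) the vehicle values were 0.51, 0.72, 0.16 and 5.53 and the furan values -0.10, 0.43, 0.70 and 1.45. Vehicle replicate 6 thus stood far above the other 7. Its difference of -1.11 ± 1.15 (SE) had a limma adjusted p of 0.54. The F range chr4:131905739-131910814 had vehicle values of 3.43, 5.81, 1.31 and 8.33 and furan values of 1.80, 2.49 and 4.21, with furan replicate 44 left out of the fit as an outlier-marked spot. Its difference was -1.88 ± 1.62 (SE, limma adjusted p = 0.46). An array was left out in this way for 16 members, of which 0 were called. Not every variable range followed that order: chr13:70745633-70776516 (R) was highest in vehicle replicate 4 at 1.62 and lowest in furan replicate 43 at -2.11. Of the 20, 1 was called, chr9:78107225-78118850.

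**Figure D5:**
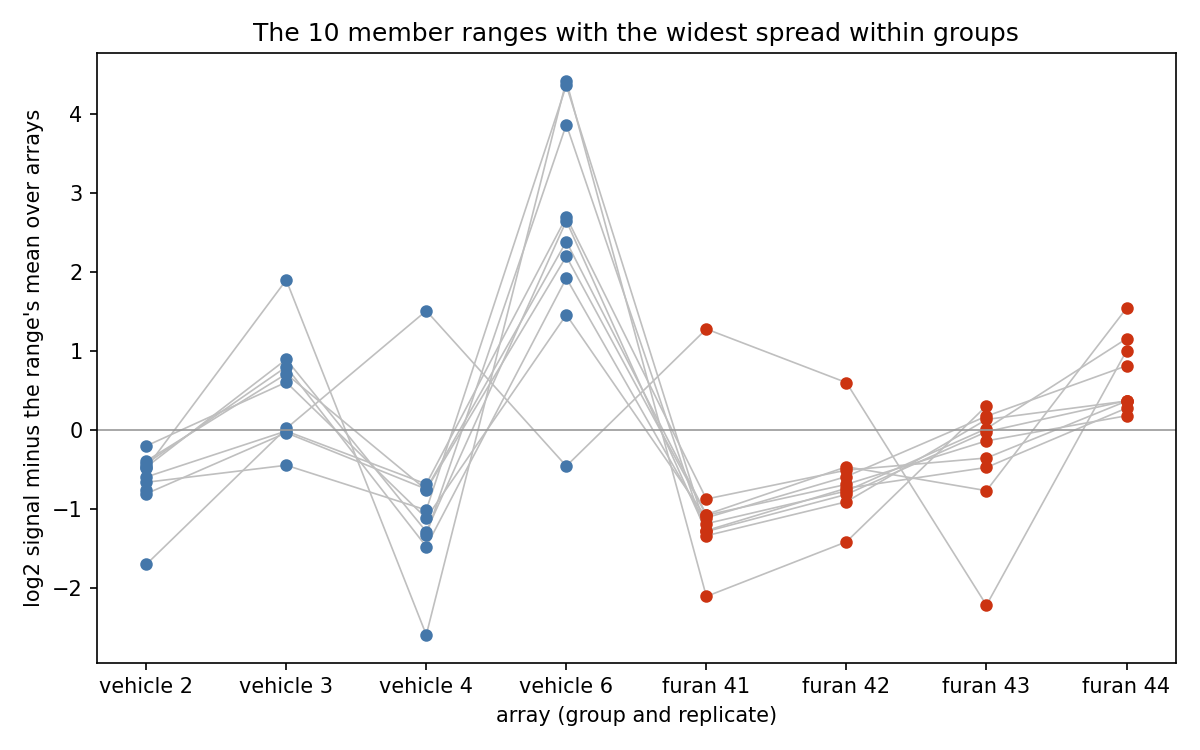
The 10 member ranges with the widest spread within groups are shown as lines over the 8 arrays (blue vehicle, red furan), with the log2 signal minus the mean of the range over arrays on the vertical axis. Most lines peak at vehicle replicate 6 and are low at vehicle replicate 4 and furan replicate 41, and 1 line runs the other way.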

How the data were processed

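Liver RNA of 8 mice was measured on 1-colour Agilent arrays of design 028005. Per the file headers, spot intensity was extracted with Feature Extraction 11.0.1.1, and probes are annotated on build mm9. The authors' deposited value table is in log2 units. How it was made is not stated in the labels. Control spots and outlier-marked spots (128 to 315 an array) were left out. Main values are log2 of the processed intensity minus the array's 75th percentile. Probes well above background on fewer than 4 arrays were dropped. A member range is the mean of its member probes, and other genes are their brightest kept probe.

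The test was limma's (lmFit, then eBayes, in limma 3.58.1 under R 4.3.3) with 1 group term. After the main fit, it was also run on simulated data whose means and SDs came from these arrays. Tables and plots used Python 3.11.15 and matplotlib 3.10.9. Per the labels, arrays followed randomized blocks that are not spelled out, so slide row and slide column were tried as alternatives. Ranges named are the 10 largest called rises and falls without overlap, the 5 with the highest signals, the 3 nearest the threshold on each side, the 8 closest pairs (ties by level) and the 3 with the widest probe spread. Members and lists were chosen with earlier results of these data known. Gene positions on mm9 were not used here; nearby genes are named from general knowledge, and gene lengths come from RefSeq on GRCm38.p6.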

Additional observations from a re-analysis of the deposited data

Results flagged for a closer look

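Over the 40 named ranges and both groups, 80 sets of 4 arrays were screened for an array whose gap to the nearest of the others made up nearly the whole range of the set, by Dixon's critical value, and 5 were found. Chance flags about 1 in 20 groups. In chr17:39983902-39985688 (F), in the ribosomal RNA stretch, furan replicate 43 stood at 7.26 and the other furan livers at 6.91 to 6.96. In chr19:5801802-5802597 (R), at Malat1, furan replicate 43 stood at 6.14 and the others at 6.83 to 6.94. In the enclosing chr19:5771425-5848475 (F) it stood at 1.94 and the others at 2.36 to 2.45. In chr6:108162092-108162886 (R), a called fall, vehicle replicate 4 stood at 0.38 and the other controls at 0.05 to 0.09. In chr6:129151512-129208737 (R), also a called fall, vehicle replicate 4 stood at 2.32 and the others at 2.05 to 2.07, all above the furan livers.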

How the results depend on the processing

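The counts, 11 higher and 12 lower among the members, moved with many settings, given here as higher and lower. They were 8 and 18 with quantile normalisation, 12 and 25 with normexp, 16 and 22 in the authors' value table, 6 and 3 without a shift, and 3 and 0 with a shift to the median. Without the filter on dim probes they were 3 and 4, and with a filter on all 8 arrays 22 and 20. Trend and robust estimation gave 29 and 24, array weights 22 and 27, and the slide column as a block 0 and 0. A level threshold on all 8 arrays gave 7 and 5, the 50th percentile 16 and 48 of 2492 members, and the 90th percentile 7 and 1 of 128. At an adjusted p under 0.01 there were 2 and 3, and at 1.5-fold or more 8 and 6. Leaving out 1 array gave 3 to 9 higher and 4 to 15 lower, in each case most without vehicle replicate 2. The cause of these moves was not tested. The counts stayed within 1.5 times with the brightest probe of a range, with probes fitted singly, with outlier-marked spots kept, with the slide row as a block and, chosen after seeing the data, the mean of all kept probes (12 and 12). The groups share no replicate numbers, so animals could not be paired by number. The pairing of arrays by slide column is the block given above, with 0 and 0. Among the 23 called ranges, the sign held in every setting except the median shift, where chr8:126278269-126291621 (F) went from -0.46 to 0.05 and chr6:31267612-31293337 (F) from -0.44 to 0.07. Relative to the median of all features in that setting, 0 of the 23 turned.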
